A study of Mus musculus with 2931 samples.

Results

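The 45 interferon-stimulated genes described here were taken by symbol from a list, and each of the 45 was found among the 18072 gene symbols of the count table. The genes were chosen by their symbols with measured values of these data in view, among them their higher reads in capillary cells at postnatal day P21 than at P7, so the levels in that comparison are given as a description. The study sequenced the RNA of 2931 sorted endothelial cells (EC, which line the vessels), each on its own, from the distal lung of 10 mice. Groups in normal air stood at E18.5 before birth and at P1, P7 and P21 after it, and a further P7 group had breathed raised oxygen (hyperoxia). Each of the 5 groups held 1 female and 1 male mouse. The strain, the genotype, the oxygen level and the number of animals behind a mouse name are not given in the sources used here. P-values over these mice therefore measure the spread between 2 named mice per group. Cells carried a subtype label of the authors. Capillary EC were labelled by the carbonic anhydrase gene Car4 as Car4+ or Car4-, and the labels Early and Late Car4- were merged as Car4- capillaries.

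Interferons are secreted signals of antiviral and antimicrobial defence. Type I interferons act through the receptor of Ifnar1 and Ifnar2 and a complex with STAT2 and IRF9 that binds the interferon-stimulated response element (ISRE). Interferon gamma acts through Ifngr1 and Ifngr2 and the gamma-activated site (GAS) in DNA, and induces Irf1, which binds ISRE-like letters in turn. Lung endothelium lies between blood and airspace and bears receptors of both kinds.

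Promoter windows of 300 bases (250 before to 50 after the RefSeq start site, GRCm38.p6) were matched for 34 of the 45 genes. The ISRE core, GAAA and GAAA with any 2 bases between, was searched on both strands and was present in windows of 20 of the 34 genes. It was found in 21 of 42 windows of these genes (50%) and in 3.44% of all 32851 windows. The GAS core, TTC and GAA with any 3 bases between, reads the same on both strands and was present for 13 of the 34 genes, in 31.0% of their windows and 8.30% of all windows, and 2 windows held ISRE and GAS letters that overlap (Bst2 and Ifitm3). Below are the 160 bases that end at the RefSeq start site for the genes called at P21 that matched, for Irgm1, the GTPase gene with the highest mean level, and for the near-copies Tgtp1 and Tgtp2. They run 5′ to 3′ on the strand of the gene, and capitals mark the ISRE letters.
Ifit1: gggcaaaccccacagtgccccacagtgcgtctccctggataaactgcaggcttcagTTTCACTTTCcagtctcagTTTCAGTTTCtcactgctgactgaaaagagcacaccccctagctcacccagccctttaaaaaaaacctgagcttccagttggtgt
Ifit3: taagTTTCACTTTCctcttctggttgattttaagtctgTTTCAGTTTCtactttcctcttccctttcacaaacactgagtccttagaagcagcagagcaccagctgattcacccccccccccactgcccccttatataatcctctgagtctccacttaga
Igtp: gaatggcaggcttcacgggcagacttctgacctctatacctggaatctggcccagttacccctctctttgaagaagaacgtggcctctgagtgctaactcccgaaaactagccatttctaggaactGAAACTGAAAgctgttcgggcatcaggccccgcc
Irgm1: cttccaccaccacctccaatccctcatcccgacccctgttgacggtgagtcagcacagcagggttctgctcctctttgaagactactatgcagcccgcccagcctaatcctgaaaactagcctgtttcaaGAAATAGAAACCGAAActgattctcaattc
Tgtp1: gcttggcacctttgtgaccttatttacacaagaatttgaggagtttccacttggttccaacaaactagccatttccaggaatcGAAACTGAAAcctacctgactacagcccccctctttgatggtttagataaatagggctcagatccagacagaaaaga
Tgtp2: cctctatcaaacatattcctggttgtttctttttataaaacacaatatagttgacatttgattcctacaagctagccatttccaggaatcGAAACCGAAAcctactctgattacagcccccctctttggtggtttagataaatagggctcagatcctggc
Ifi213: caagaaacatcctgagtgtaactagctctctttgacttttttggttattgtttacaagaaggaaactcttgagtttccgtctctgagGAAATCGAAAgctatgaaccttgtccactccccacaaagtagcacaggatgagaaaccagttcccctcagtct
AU020206: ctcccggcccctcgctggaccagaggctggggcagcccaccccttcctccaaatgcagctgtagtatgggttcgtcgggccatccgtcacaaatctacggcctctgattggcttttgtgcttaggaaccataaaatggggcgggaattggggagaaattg
These stretches lie at chr19:34640729-34640888 on the plus strand (Ifit1), chr19:34583369-34583528 on the plus strand (Ifit3), chr11:58199396-58199555 on the plus strand (Igtp) and chr11:48871421-48871580 on the minus strand (Irgm1). The others lie on the minus strand at chr11:48992247-48992406 (Tgtp1), chr11:49064213-49064372 (Tgtp2), chr1:173599273-173599432 (Ifi213) and chr7:75782121-75782280 (AU020206). Ifit1 and Ifit3 carry the same pair of ISRE letters on the opposite strand, TTTCACTTTC and TTTCAGTTTC, at -104 and -85 and at -156 and -122 from the start. Tgtp1 and Tgtp2 differ within the ISRE, with GAAACTGAAA at -77 and GAAACCGAAA at -70. In Irgm1 a pair of matches overlaps. In AU020206 neither set of letters is in the 300 bases searched, and the motif matches are a description of the letters alone. In the gene models of GENCODE M21 the Irgm1 and Tgtp1 stretches lie inside a longer gene model, and those of Ifit1 and Ifi213 reach its first bases. Of the genes called at P21, Ifit1 and Ifit3 both lie on chromosome 19, and Igtp and Tgtp2 on chromosome 11.

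The table held 2062278606 reads, and a mouse had between 56564316 and 331392982. Car4- capillaries numbered 181 and 122 cells in the female and male mouse of P1, 206 and 116 at P7, 272 and 268 at P21, and 153 and 132 after hyperoxia. Reads were summed per mouse and subtype and scaled to 1000000 reads of the sum (CPM), so fewer cells with a gene and less RNA per cell cannot be told apart in these sums. The Car4- sums of these 8 mice held reads of 8 of 8 endothelial markers, with a summed level of 6897 to 9098 CPM. A set of 13 Car4- cells of the female E18.5 mouse had a median of 867 detected genes at 50000 reads, and subtype comparisons are therefore given with and without that mouse. In the plate libraries no 2 cells had identical counts, and the 2931 cell names were distinct.

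In Car4- capillaries the interferon-stimulated genes stood higher at P21 than at P7 over nearly the whole list. Both P21 mice lay above both P7 mice for 41 of the 44 genes tested, where 19.7% of all genes tested did so. The median log2 change of the 44 was 2.15, against 0.06 over all genes, and 44 of 44 lay above 0, against 52.7% of all genes. Mx1 was too low to be tested. Summed over the 41 genes other than Ifitm2, Ifitm3, Irf1 and Bst2, the 4 with the most reads (a cut made after the values were seen), the level was 1600 CPM in the female and 847 in the male P7 mouse, and 3921 and 5644 at P21. These sums hold the cells of all sort gates, which are set apart below. The quasi-likelihood test of edgeR with Benjamini-Hochberg adjustment called 6 genes as higher (background 0.177% of all genes, 0.266% in either direction) and 0 as lower (0.0887%), while 37 of the 44 had an unadjusted p under 0.05 (10.5% of all genes). The list was written with this comparison known, so nothing is read from that count. The 6 were Igtp, Ifi213, Ifit1, Ifit3, Rtp4 and AU020206. Without the female P7 mouse 0 of them were called, and without the male P7 or the male P21 mouse AU020206 alone, while with DESeq2 26 genes were (4.76% of all genes).

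**Figure D1:**
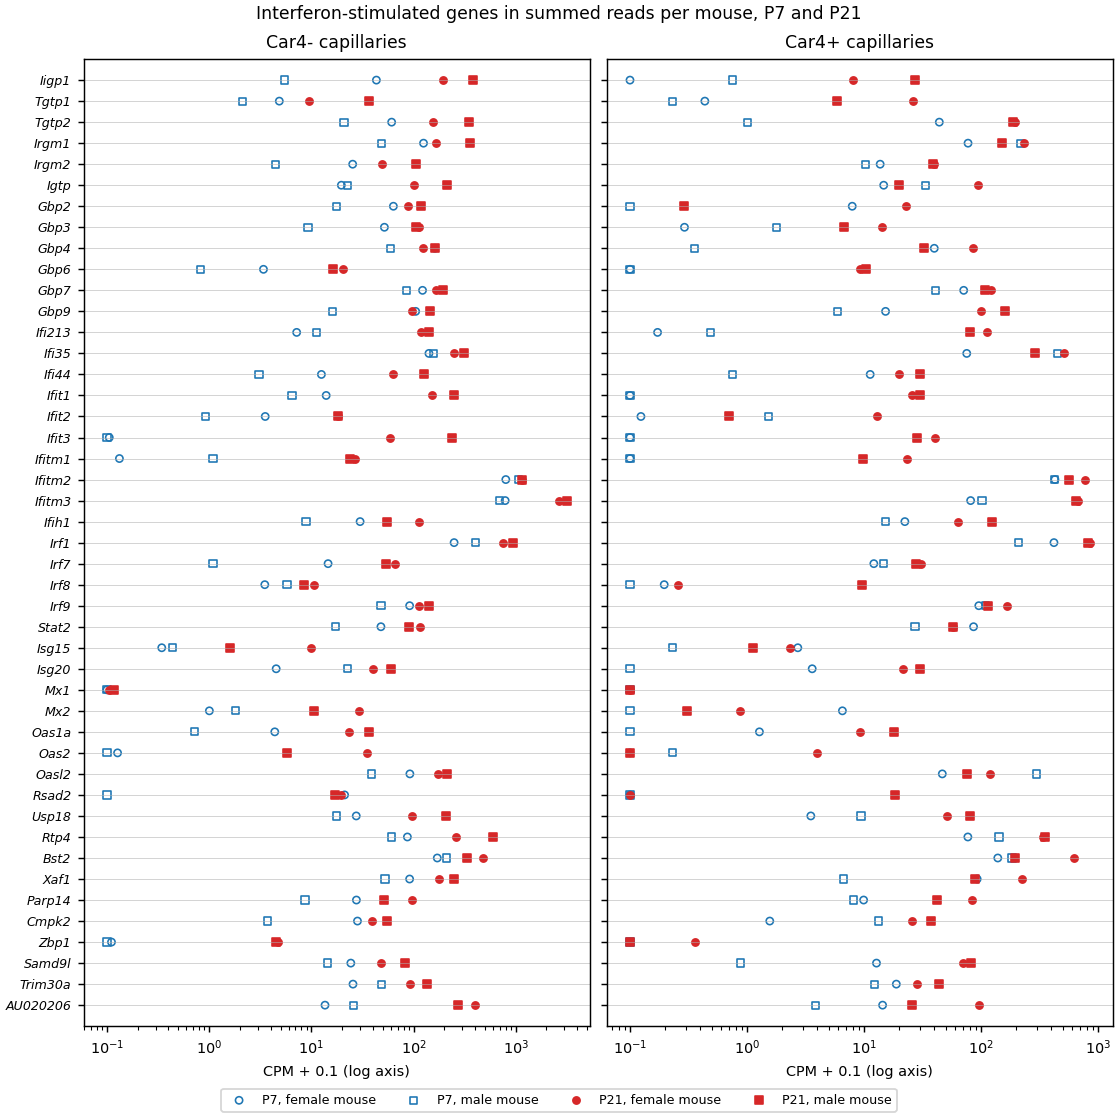
Level of each of the 45 genes in the summed reads of Car4- (left) and Car4+ capillaries (right), as CPM plus 0.1 on a log axis. Points are single mice, open at P7 and filled at P21, circles female and squares male. In Car4- capillaries both filled points lie to the right of both open points for most genes, as in Igtp with 19.6 and 22.6 CPM at P7 and 101 and 215 CPM at P21.

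The largest role group was that of the GTPases induced by interferon gamma, which attack the vacuoles of intracellular pathogens. In 10 of its 12 genes both P21 mice lay above both P7 mice, with a median log2 change of 2.24 and a range from 0.50 (Gbp4) to 3.70 (Iigp1). Igtp, which encodes the immunity-related GTPase IRGM3, had 19.6 and 22.6 CPM in the female and male P7 mouse. It had 101 and 215 CPM at P21 (log2 change 3.06, SE 0.51, edgeR adjusted p 0.0388). The P7 mice were close together and the P21 mice far above them, the male mouse highest. Igtp overlaps its neighbour Irgm2 on the same strand, and their longest transcripts are identical at 83.0% of 1147 aligned bases, so reads may be split between them. Irgm1, a regulator of this family with its highest mean level, had 125 and 48.8 CPM at P7 and 167 and 358 CPM at P21. The groups lay apart by less than the distance between the P21 mice, and its log2 change of 1.74 did not pass (SE 0.72, edgeR adjusted p 0.433). Tgtp2, a GTPase first found in T cells, had 61.0 and 20.8 CPM at P7 and 154 and 349.9 CPM at P21 (edgeR adjusted p 0.193). Its transcript matches that of Tgtp1 at 2804 of 2810 aligned bases, so how reads were divided between these genes is uncertain. The guanylate-binding proteins Gbp4 and Gbp9, whose genes overlap on the same strand, were the 2 of the group whose P7 and P21 mice overlapped.

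Among the 5 transcription factors the groups lay apart in 5, with 0 calls by edgeR (4 with an unadjusted p under 0.05). Irf1, which both interferon types and other signals induce, was the highest of them. It had 249 and 403 CPM at P7 and 759 and 930.3 CPM at P21 (log2 change 1.51, SE 0.42, edgeR adjusted p 0.22). All 4 values were high in comparison with the other genes of the list. Irf7, the amplifier of the type I response, had 14.5 and 0.992 CPM at P7 and 65.3 and 54.0 at P21. Stat2 and Irf9, members of the type I complex, had log2 changes of 1.76 and 1.00. Irf8, a factor best known from myeloid cells, was low, with 3.41 to 10.4 CPM in these 4 mice. Per kilobase of exon it had 0.644 CPM at P7 and 1.34 CPM at P21.

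Ifi213 belongs to the family of interferon-induced DNA-binding proteins that includes cytosolic DNA sensors. It had 7.09 and 11.1 CPM at P7 and 118 and 140.1 CPM at P21 (log2 change 3.96, SE 0.58, edgeR adjusted p 0.0245). The 2 mice of each group were close, with a wide gap between the groups. Ifih1, which encodes the RNA sensor MDA5, had 29.9 and 8.75 CPM at P7 and 113 and 54.6 at P21. Zbp1, a sensor of left-handed nucleic acids, had 2 reads at P7 and 1455 at P21, a ratio of 488 with a 95% counting interval from 135 to 4034.

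Of the genes that restrict viral RNA and its translation, 9 of the 10 tested had P21 mice above both P7 mice. Ifit1, whose protein binds foreign RNA ends, had 13.9 and 6.36 CPM at P7 and 152 and 249 CPM at P21 (log2 change 4.44, SE 0.77, edgeR adjusted p 0.0421). Its level rested on few cells. At a depth of 50000 reads it was detected in 11.03% and 10.8% of Car4- cells of the P21 mice, and a single cell gave 34.95% and 47.4% of its reads there. Ifit3, a partner of IFIT1, had 1 read in the P7 mice, 59.0 CPM in the female and 240 CPM in the male P21 mouse. The ratio of P21 to P7 was 27547 with a 95% counting interval from 4944 to 1.09e+06 (edgeR adjusted p 0.045). Per kilobase of exon Ifit3 had 2.66 CPM at P1, 0.00155 CPM at P7 and 85.5 CPM at P21, so its P7 level lay below that of P1. It was detected in 11.4% and 10.8% of P21 cells and in 0 of the P7 cells at 50000 reads, and its transcript matches that of Ifit3b at 98.0% of 1697 aligned bases, so its reads may be shared with that gene. Oasl2, an oligoadenylate synthetase-like gene and the one of this group with the highest mean level, had 92.0 and 38.8 CPM at P7 and 172 and 210.3 at P21 (log2 change 1.67, SE 0.54, edgeR adjusted p 0.311). Rsad2, which encodes viperin, overlapped between the groups with 21.1 and 0 CPM at P7 and 19.6 and 16.9 at P21.

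The 4 membrane genes restrict viruses as they enter or leave cells. Ifitm3 had the most reads of the list, with 788 and 698 CPM at P7 and 2660.1 and 3142 CPM at P21. The groups lay far apart relative to their spread, yet the log2 change of 2.09 did not pass (SE 0.47, edgeR adjusted p 0.125). Per kilobase of exon, Ifitm3 stood highest in the P21 mice with 4278 CPM, before Ifitm2 with 1762, Bst2 with 448, Irf1 with 212 and Rtp4 with 201. Its neighbour Ifitm2 moved little, with 799.7 and 1057 CPM at P7 and 1152 and 1157 CPM at P21. Bst2, the tetherin that holds budding virus at the cell surface, had 171 and 211 CPM at P7 and 475 and 334 CPM at P21.

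Usp18 removes the ubiquitin-like protein ISG15 from its targets and dampens the type I receptor. It had 27.4 and 17.6 CPM at P7 and 96.8 and 206 CPM at P21 (log2 change 2.89, SE 0.62, edgeR adjusted p 0.101). Isg15 itself was low in this table, between 0.244 and 9.79 CPM in the 4 mice. Of the remaining 8 genes, the groups lay apart in 8. Ifi35, an interferon-induced protein, had 141 and 156 CPM at P7 and 249 and 310.2 CPM at P21 (log2 change 1.04, edgeR adjusted p 0.403). Rtp4, an interferon-induced receptor transporter, had 87.0 and 60.9 CPM at P7 and 258 and 600.03 CPM at P21 (log2 change 2.69, SE 0.49, edgeR adjusted p 0.045). The male P21 mouse was the highest of the 4. The call on Rtp4 was lost under 7 of 11 alternatives: in CD31-gate cells (log2 change 2.06, edgeR adjusted p 0.0764), thinned cells, limma, with sex as a block and without the female P7, the male P7 or the male P21 mouse. AU020206, annotated as a long intergenic noncoding RNA on chromosome 7, had 13.5 and 25.5 CPM at P7 and 396 and 275 CPM at P21 (log2 change 4.21, SE 0.48, edgeR adjusted p 0.00686). It was detected in 11.2% and 22.1% of P7 cells and in 73.5% and 42.5% of P21 cells at 50000 reads, the highest share of P21 cells among the 6 genes called.

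The P1 mice were set against the same P21 mice, so the P1 values stand beside those above and are no separate check of the P21 level. Both P21 mice lay above both P1 mice for 37 of the 44 genes tested (20.7% of all genes), with a median log2 change of 2.24 (0.03 over all genes), and below both for Ifitm2 alone (20.3% of all genes). In edgeR's quasi-likelihood test with Benjamini-Hochberg adjustment, 5 genes were higher at P21 (background 0.246%, 0.368% in either direction) and 0 lower (0.123%). Tgtp2 had 12.2 and 2.63 CPM in the female and male P1 mouse (log2 change 5.23, SE 0.83, edgeR adjusted p 0.0199). Ifit1 had 10.8 and 1.90 CPM at P1 (log2 change 5.12, SE 0.80, edgeR adjusted p 0.0172). Igtp had 19.1 and 19.7 CPM at P1, Ifi213 17.6 and 9.55 CPM, and AU020206 35.7 and 28.1 CPM. Their log2 changes were 3.07, 3.31 and 3.40, with edgeR adjusted p of 0.0265, 0.0265 and 0.0103. The female P1 mouse was above the male mouse for most of these genes. Without the male P1 mouse 0 of the 5 were called, without the male P21 mouse AU020206 alone, and without the female P1 mouse 9 genes.

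For the membrane genes the P1 mice lay nearer to the P21 mice. Ifitm3 had 2003 and 3346 CPM at P1, which overlapped the P21 mice, and the P7 mice were the lowest of the 6. Ifitm2 had 1231 and 2619 CPM at P1, above both P21 mice, and Bst2 had 414 and 548 CPM. The median log2 change of the 4 membrane genes from P1 to P21 was -0.09 (edgeR called 0, and 0 had an unadjusted p under 0.05), beside 2.61 for the 12 GTPases and 3.08 for the 10 genes of RNA restriction tested. From P7 to P21 the membrane median was 1.64. Whether these groups of genes differ in course was not tested.

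Part of the P21 cells came through another sort gate and run. The labels name a gate "mesench" for 50 of the female and 83 of the male P21 Car4- cells, in runs other than those of the CD31-gate cells. Ifit1 had 68.1 CPM in the CD31-gate and 563 CPM in the mesench-gate cells of the female mouse, and 53.4 and 532 CPM in those of the male mouse. Igtp had 50.004 and 316 CPM in the female and 109.7 and 367 CPM in the male mouse. The mesench-gate cells were thus higher in both mice for both genes, and in CD31-gate cells alone Ifit1 and Igtp were not called against P7 (edgeR adjusted p 0.297 and 0.27, log2 changes 2.53 and 1.88). Ifi213 and AU020206 did not share this order, with 95.3 and 158 CPM and 396 and 392 CPM in the female mouse, and 151 and 125 CPM and 181 and 411 CPM in the male mouse. Over the 45 genes the mesench-gate cells were higher for 19 and lower for 26 in the female mouse, and higher for 28 and lower for 17 in the male mouse. CD31-gate cells alone kept AU020206, Ifi213 and Ifit3 against P7 and AU020206, Ifi213 and Tgtp2 against P1.

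**Figure D2:**
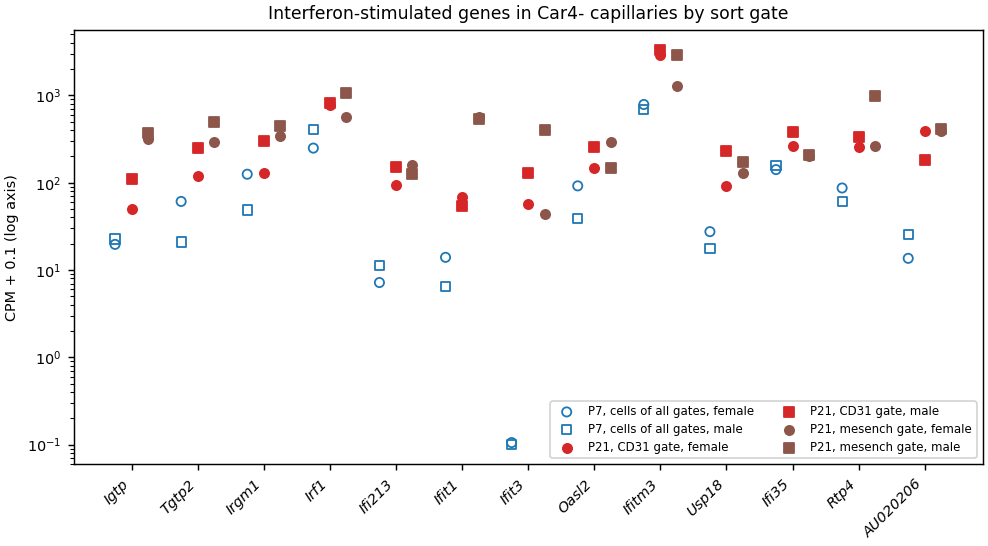
Level of 13 of the genes in Car4- capillaries by sort gate, as CPM plus 0.1 on a log axis: P7 cells of all gates (open), the CD31 gate at P21 (red) and the mesench gate at P21 (brown), circles female and squares male mice. Ifit1 lies between 53.4 and 68.1 CPM in the CD31 gate and between 532 and 563 CPM in the mesench gate at P21, while Ifi213 stays between 95.3 and 158 CPM in both.

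Within sequencing runs most genes of the list were higher at P21. The CD31-gate Car4- cells of the male P21 and P7 mice share a run, and 44 of the 45 genes were higher at P21 and 1 lower. Those of the female P21 and P1 mice share another, and 45 of 45 were higher at P21. For Car4+ capillaries the counts were 34 higher and 8 lower in the first pair and 37 higher and 7 lower in the second. Each pair sets a single mouse against a single mouse, and the share of all genes was not counted. The list was chosen with the P21 level in view, so the part of the run was not tested by these counts. Genes of tissue dissociation and heat shock moved with P21 as well. Their 18 genes had a summed level of 5003 and 7235 CPM in the P7 and 13081.5 and 13677 CPM in the P21 Car4- cells, 18 of 18 had a log2 change above 0, and Hspa1a, Hspa1b and Hsp90aa1 were called as higher by edgeR. In Car4+ capillaries this sum was 9108 and 6304 CPM at P7 and 17146 and 12989.6 CPM at P21. The 10 immune markers summed to 10.8 and 38.3 CPM at P7 and 31.6 and 29.4 CPM at P21, with Nkg7 at 0 in both P21 mice and reads of 9 of the 10 markers in each. The 6 epithelial markers summed to 35.6 and 79.3 CPM at P7 and 157 and 214 CPM at P21. The part of handling and of other cells in the P21 level was not tested.

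The labels Early and Late Car4- follow age, so they were compared within a mouse. In the female P7 mouse 15 of the genes were higher in Late and 29 in Early Car4- cells, and in the female P1 mouse 9 and 34. The 268 Late cells of the female P21 mouse were above the 44 Late cells of the female P7 mouse for 40 genes and below for 4. The share of all genes was not counted for these comparisons, and a difference between the labels was not tested.

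Single Car4- cells at P21 held reads of slightly more of the genes than at P7 and a higher summed level. With each cell thinned to 50000 reads, the median Car4- cell had reads of 7 and 8 of the 45 genes in the P7 mice and of 10 and 9 in the P21 mice. All reads gave 8 and 9 at P7 and 13 and 10 at P21. In the P1 mice the medians were 9 and 6.5 thinned and 11 and 9 with all reads, so the number detected in the female P1 mouse reached that of the male P21 mouse. The thinned P21 cells held fewer genes in all, with a median of 2077 and 1187 detected genes beside 2030.0 and 3236 at P7. The summed level of the 41 genes without the 4 with the most reads had a median over cells of 1136 and 802 CPM at P7 and of 2873 and 3434 CPM at P21. Cells with 10 or more of the genes made up 42.2% and 19.7% at P1, 27.2% and 35.4% at P7 and 60.3% and 45.9% at P21. At P21 the top 10% of cells gave 29.9% and 33.9% of their reads for the 41 genes, beside 34.3% and 26.1% at P7.

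**Figure D3:**
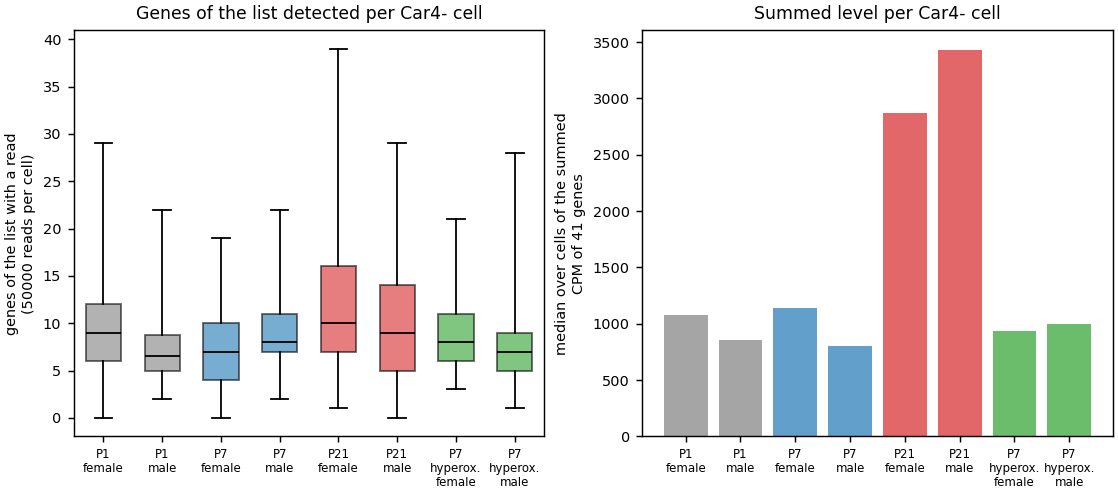
Left, number of the 45 genes with a read in a Car4- cell thinned to 50000 reads, by mouse (line median, box quartiles, whiskers lowest and highest cell). Right, median over cells of the summed CPM of 41 genes, by mouse. The medians on the left run from 6.5 to 10 over the 8 mice, and those on the right from 802 to 1136 CPM in the 6 mice of P1, P7 and hyperoxia and from 2873 to 3434 CPM in the P21 mice.

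Car4+ capillaries, the larger aerocytes of the gas exchange surface, came from the same mice in smaller numbers, with 42 and 24 cells at P7 and 57 and 77 at P21. The sum of the 41 genes was 877 and 1422 CPM in the female and male P7 mouse and 3089 and 2443 CPM at P21. Both P21 mice lay above both P7 mice for 30 of the 42 genes tested (20.9% of all genes) and below for 0 (12.8%), with a median log2 change of 2.23 against 0.05 over all genes. The median was 2.23 too with the 5 genes at 0 reads at P7 set to their lower bound. With edgeR 0 genes were called (background 0.00814% in either direction, 0% higher and 0.00814% lower). At an unadjusted p under 0.05 there were 11 (5.24% of all genes), and DESeq2 called 6 (2.10%): Gbp9, Ifi213, Ifit1, Ifit3, Ifitm3 and Rsad2. Ifitm3 had the smallest p, with 81.4 and 102 CPM at P7 and 676 and 648.5 CPM at P21 (log2 change 2.75, SE 0.56, edgeR adjusted p 0.524). The mice of each group were close together and the groups lay far apart. Tgtp2 had 43.9 and 0.905 CPM at P7 and 195 and 188 CPM at P21, and Ifi213 0.0721 and 0.388 CPM at P7 and 113 and 80.6 CPM at P21. Ifit1 had 0 reads in the P7 mice and 25.7 and 29.7 CPM at P21, and Ifit3 0 reads and 40.6 and 28.4 CPM. Against a floor of 3 reads over the P7 mice these were at least 457-fold and at least 565-fold higher, a bound on counting error only. Irf1 had 420.04 and 208 CPM at P7 and 847 and 816 CPM at P21. Irgm1 and Oasl2 overlapped between the groups, since the male P7 mouse had 218 and 296 CPM. Igtp had 93.6 CPM in the female and 19.97 CPM in the male P21 mouse, where the latter lay below the 33.6 CPM of the male P7 mouse.

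Against P1 the values of the same P21 Car4+ cells gave a median log2 change of 1.92 over the 42 genes (0.13 over all genes). The P21 mice lay above both P1 mice for 29 (19.3% of all genes) and below for Irf7 alone (17.4%), with 0 calls by edgeR (background 0.00814% in either direction, 0% higher and 0.00814% lower). At an unadjusted p under 0.05 there were 11 (5.21% of all genes), and DESeq2 called 5 (1.76%): AU020206, Ifit3, Irf9, Irgm1 and Tgtp2. Tgtp2 had 2.28 and 0.0746 CPM at P1 (log2 change 7.48, SE 2.10, edgeR adjusted p 0.804), and Irf1 had 267 and 242 CPM. The P21 against P7 change itself differed between Car4+ and Car4- capillaries for 0 genes in an edgeR model with the mouse as a term (background 0%). At an unadjusted p under 0.05 there were 4 (3.88% of all genes), and DESeq2 called Ifi213 and Ifit1 (2.06%). The precision was limited: the SE of the log2 change in Car4+ cells was 1.18 for Igtp and 1.03 for Ifih1.

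**Figure D4:**
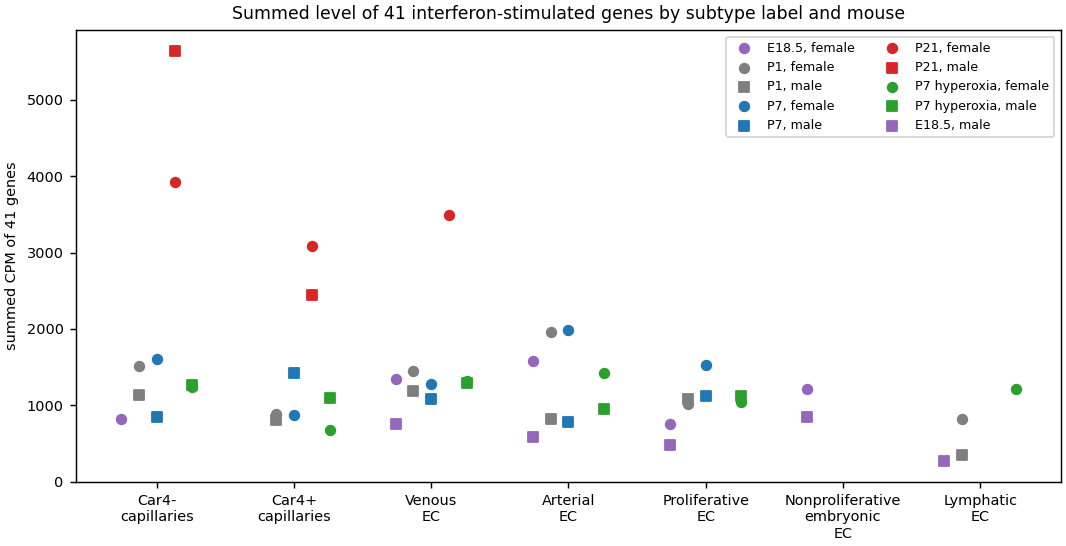
Summed CPM of the 41 genes without Ifitm2, Ifitm3, Irf1 and Bst2 by subtype label; each point is 1 mouse with at least 8 cells of the label, circles female and squares male, coloured by group. The P21 points lie highest in each label that has them: 3921 and 5644 CPM in Car4-, 3089 and 2443 CPM in Car4+ and 3496 CPM in venous EC.

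Across the subtype labels, genes of the GTPase and membrane groups kept an order over mice. The labels were made from the expression of the same cells, so these comparisons are counts over mice with no test. Car4+ capillaries were lower than Car4- capillaries of the same mouse in 8 of 8 mice for 13 of the 42 genes for which the higher of a mouse's 2 values averaged 5 CPM or more over mice (9.24% of all genes), and higher for 0 (2.84%). The 13 held 6 GTPases (Iigp1, Gbp2, Gbp3, Gbp4, Gbp6 and Gbp7) and the membrane genes Ifitm1, Ifitm2 and Ifitm3. Ifitm3 had 313 ± 233 CPM (SD, n = 8) in Car4+ and 1914 CPM on average in Car4- capillaries of the same mice, a median log2 ratio of -2.55. Iigp1, an immunity-related GTPase, had 4.83 ± 9.50 CPM (SD, n = 8) in Car4+ and 87.8 CPM on average in Car4- capillaries. In venous EC 4 genes were higher than in Car4- capillaries in 8 of 8 mice (3.88% of all genes): Iigp1, Gbp2, Ifitm2 and Ifitm3, with median log2 ratios of 1.41, 1.11, 0.40 and 0.61. The same 4 genes were thus lowest in Car4+, between in Car4- and highest in venous EC in each mouse that held all 3 labels. Venous EC of the female P21 mouse, 13 cells, had a sum of 3496 CPM over the 41 genes, while venous EC of the other mice had 755 to 1444 CPM.

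Arterial EC were higher than Car4- capillaries for Iigp1 and Ifitm2 in 7 of 7 mice (2.57% of all genes). Proliferative EC were lower for Ifi44, an interferon-induced gene, in 7 of 7 (2.57%). Without the female E18.5 mouse, proliferative EC were lower for 5 genes (Gbp9, Ifi44, Ifitm2, Irf1 and Trim30a; 8.43%), venous EC for 3 (Ifi213, Ifih1 and Xaf1; 7.43%) and arterial EC for 3 (Irgm2, Ifi213 and Irf8; 7.73%), where with it the venous and arterial counts were 0 (3.54% and 3.08%). Lymphatic EC, present in 3 mice with Car4- cells, were lower for 20 of 37 genes (20.1%) and higher for Tgtp1 and Irf8 (23.8%). Irf8 had 108 and 86.8 CPM in lymphatic EC of the P1 mice and 38.4 CPM in the female hyperoxia mouse, beside 10.96, 7.97 and 3.83 CPM in their Car4- cells. Tgtp1 had 262 CPM in lymphatic EC of the female hyperoxia mouse, where 1 of 14 cells gave 81.7% of its reads, beside 11.1 and 0.630 CPM at P1. Before birth the summed levels over the 41 genes lay below those of P21. Nonproliferative embryonic EC of the E18.5 mice, a label without P1 or P7 sums, had 1217 and 842 CPM. They had 0.929 and 0.584 CPM of Tgtp2 and 6.61 and 0.0146 CPM of Ifit1. Irf1 stood at 411 and 429.8 CPM and Ifitm3 at 1614 and 1793 CPM. Proliferative EC had 749 and 483 CPM at E18.5, below 1020 and 1075 CPM at P1 and 1523 and 1119 CPM at P7. The male E18.5 mouse also lay below the P1 and P7 mice in venous EC (755 CPM) and arterial EC (586 CPM). The female mouse, with 1346 and 1578 CPM, did not. The E18.5 sums of Car4- capillaries (820 CPM) and lymphatic EC (271 CPM) were below those of P1 too.

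Hyperoxia at P7 gave no change of the list in 1 direction. The hyperoxia mice are compared with the P7 mice that also stand in the P21 comparison. In Car4- capillaries 23 of the 44 genes tested had a log2 change above 0 and 21 below, with a median of 0.08 (-0.01 over all genes). In Car4+ capillaries the median was 0.00 (-0.06 over all genes), in venous EC 0.01 (0.01) and in proliferative EC -0.13 (0.00). With edgeR 0 genes of the list were called in each of the 4 classes (background 0.0136% in Car4- capillaries, 0.00682% in each direction, and 0% in the other 3). At an unadjusted p under 0.05 there were 7 in Car4-, 6 in Car4+, 2 in venous and 3 in proliferative EC (5.52%, 6.16%, 2.69% and 2.59% of all genes). DESeq2 called 1, 2, 0 and 3 (1.25%, 2.16%, 0.746% and 0.870%). Hyperoxia mice lay above both P7 mice for 11 and below for 4 of the genes in Car4- capillaries (18.1% and 15.6% of all genes), for 8 and 4 in Car4+ (19.8% and 12.4%), for 6 and 6 in venous (17.6% and 16.5%) and for 3 and 10 in proliferative EC (16.6% and 16.4%).

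Irf1 and Ifitm3 were the genes of the list whose hyperoxia and P7 mice lay apart in the same direction in 4 of 4 classes, Irf1 lower and Ifitm3 higher. Of the 11192 genes tested in each class, 40 of them from the list, 0.438% lay lower and 0.876% higher in this way. In Car4- capillaries Irf1 had 249 and 403 CPM in normal air and 167 and 155 CPM after hyperoxia. In Car4+ capillaries it had 420.04 and 208 CPM in normal air and 89.0 and 176 CPM after hyperoxia. In venous EC the values were 429 and 1025 CPM in normal air and 129.8 and 137 CPM after hyperoxia, and in proliferative EC 214 and 391 CPM and 105 and 56.1 CPM. Both hyperoxia mice lay below both P7 mice in each of the 4 classes. The log2 changes were -1.04, -1.44, -2.41 and -1.91 in that order (SE 0.41, 0.51, 0.72 and 0.49). None passed (edgeR adjusted p 0.887, 0.731, 1 and 1; unadjusted 0.0261, 0.0153, 0.00594 and 0.00248), while DESeq2 called the change in proliferative EC. The classes come from the same 4 mice and are not 4 separate observations. The interferon gamma receptor gene Ifngr1 had log2 changes of -0.77, -0.72, -0.14 and -0.45, and a link of these to the Irf1 level was not tested.

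**Figure D5:**
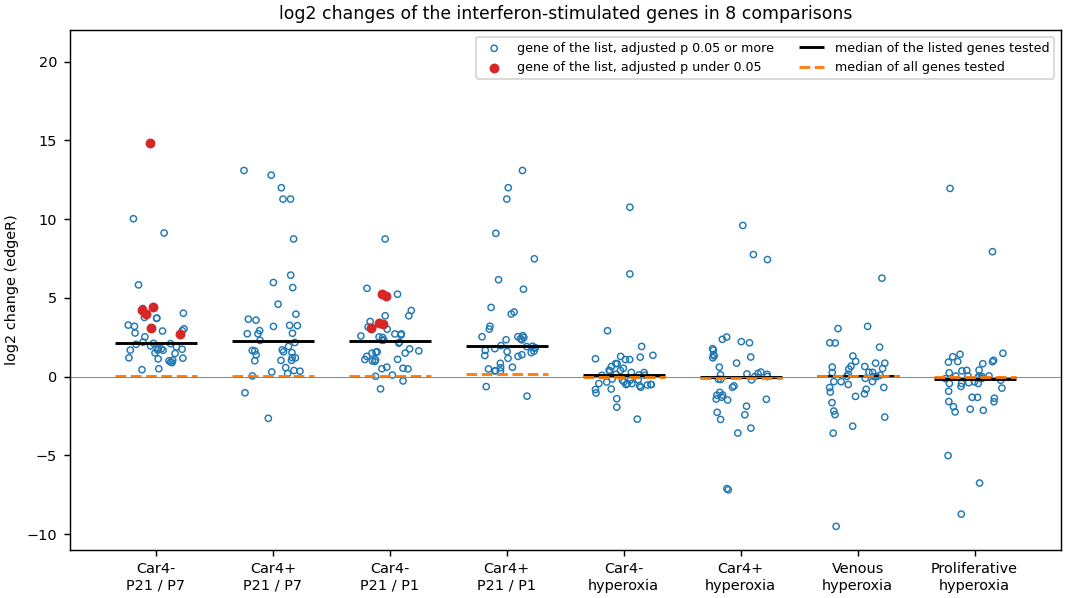
Log2 changes from edgeR of the genes tested in 8 comparisons, each circle 1 gene, filled where the adjusted p was under 0.05; black lines are medians over the listed genes tested and dashed lines medians over all genes tested. Medians lie between 1.92 and 2.24 in the 4 comparisons of P21 and between -0.13 and 0.08 in the 4 of hyperoxia; values beyond about 8 come from genes with few or 0 reads in a group and are no measure of size.

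The 4 membrane genes differed from each other under hyperoxia, with 0 passing the test by edgeR. Ifitm3 had 788 and 698 CPM in normal air and 945 and 1730.1 CPM after hyperoxia in Car4- capillaries, and both hyperoxia mice lay above both P7 mice in each of the 4 classes (log2 changes 0.83, 1.24, 0.64 and 0.91). Bst2 had 171 and 211 CPM in normal air and 329 and 579 CPM after hyperoxia in Car4- capillaries (log2 change 1.23, SE 0.41, unadjusted p 0.00977, edgeR adjusted p 0.887). Its mice lay apart in Car4+ and proliferative EC as well but overlapped in venous EC. The mice overlapped for Ifitm2 in 3 of the 4 classes, and Ifitm1 was lower in both hyperoxia mice in proliferative EC. It lay between 0.150 and 0.176 CPM after hyperoxia, on 8 reads. In normal air the lower mouse had 1.99 CPM and the higher 34.7 CPM, so the P7 mice were far apart. Tgtp2 was lower in Car4- capillaries, with 61.0 and 20.8 CPM in normal air and 15.8 and 6.22 CPM after hyperoxia (log2 change -1.94, SE 0.72, edgeR adjusted p 0.887). Of the 12 GTPases, 10 had a log2 change below 0 in Car4-, 5 in Car4+, 9 in venous and 10 in proliferative EC. The medians over all genes, given above, lay near 0 in each class. The classes come from the same 4 mice, and some of the GTPase genes are near-copies or overlap, so the counts are not of separate observations. Whether the GTPases moved together was not tested. Ifit3 had 1 read in the P7 Car4- cells and 6.59 and 13.7 CPM after hyperoxia, a ratio of 2172 with a 95% counting interval from 389 to 85836 (edgeR adjusted p 0.44; DESeq2 called it). Within the run shared by the male hyperoxia and P7 mice, 30 genes were higher and 13 lower in Car4- capillaries. The counts were 26 and 14 in Car4+, 22 and 19 in venous and 19 and 23 in proliferative EC. They set a single mouse against a single mouse, and the share of all genes was not counted. The hyperoxia change differed between Car4+ and Car4- capillaries for 0 genes with edgeR (background 0%; 1 with an unadjusted p under 0.05, 3.31% of all genes) and 0 with DESeq2 (1.64%).

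Other genes of the pathway were described beside the P21 level in Car4- capillaries. Their lists too were chosen with earlier results of these data known, so nothing is read from their counts. In P21 against P7, 10.5% of all genes had an unadjusted p under 0.05, and the share with a log2 change above 0 is given above. Of the interferon genes themselves, 3 of 14 symbols sought are in the table, and Ifng had 3 reads, Ifnk 13 and Ifnz 1 in all cells. Of 9 receptor and signalling genes tested, 0 were called by edgeR (1 with an unadjusted p under 0.05). Ifngr1 had 591 and 387 CPM at P7 and 579 and 562 CPM at P21, and Ifnar1 124 and 138 CPM at P7 and 67.7 and 88.8 CPM at P21. Of 13 genes of nucleic acid sensing and 6 negative regulators tested, 0 were called (4 and 2 with an unadjusted p under 0.05). A further list of 41 interferon-responsive genes had 33 tested, 33 with a log2 change above 0 and a median of 1.59. Of these, edgeR called 3 as higher (background 0.177% of all genes): Ifit3b, Sp100 and Slfn5. Sp100, a nuclear body protein, had 55.1 and 43.1 CPM at P7 and 210.4 and 238 CPM at P21 (log2 change 2.31, SE 0.38, edgeR adjusted p 0.033). Slfn5 had 91.0 and 98.8 CPM at P7 and 373 and 497 CPM at P21 (log2 change 2.33, edgeR adjusted p 0.0322). Against P1 the calls of that list were Ifi27, Ifi47, Sp100 and Phf11d (background 0.368% of all genes in either direction). The 7 antigen-processing genes had log2 changes above 0 in 7 of 7 and 0 calls (3 with an unadjusted p under 0.05), and B2m, the light chain of class I molecules, had 1421 and 1451 CPM at P7 and 3639 and 4428 CPM at P21 (edgeR adjusted p 0.182).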

How the data were processed

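Single cells were sorted from mouse lung into plates and sequenced over whole transcripts without molecular identifiers, so a read is not a molecule. The deposited values are read counts per gene symbol and cell. Per the submitters' processing notes, STAR 2.5.2b and HTSeq 0.10 were used and the build is named GRCh38, a human build, so the mouse build is uncertain; annotation and strand are not given in the sources used here. The subtype labels, mouse and sort gate of each cell are the authors' deposited annotation. The table lists no mitochondrial, ribosomal protein, Gm or spike-in symbols.

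The 45 genes and all other lists were chosen with earlier results of these data known. Counts were summed per mouse and class (Early and Late Car4- merged, arterial I and II merged, at least 8 cells per class and mouse), because mice are the replicates. All genes passing filterByExpr were fitted with edgeR 4.0.16 (TMM, quasi-likelihood test, Benjamini-Hochberg adjustment at 0.05, R 4.3.3). Alternatives were DESeq2 1.42.0, RLE factors, no filter, CD31-gate cells, cells thinned to 50000 reads (seed 7; 11 cells were shallower), limma 3.58.1 on log2(mean CPM over cells + 1), sex as a block and leaving out each mouse. Subtype levels were also taken without the female E18.5 mouse, an alternative chosen after seeing the data. A check of the code used simulated counts with 100 genes changed 4-fold and 100 changed 16-fold. Of the 4-fold changes, the fit over 14660 genes of Car4- P21 against P7 recovered 73%, with 6 false calls. That over 12284 genes in Car4+ recovered 85%, with 4 false calls. The simulated spread was a fixed setting rather than that of these mice, and genes of low level were left unchanged. These shares therefore do not give the recovery in the real data. Cells had 42095 to 2967985 reads, median 621406. Counting intervals are exact at 95% and, like the floor of 3 reads, cover counting error only.

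Values in every mouse are given for genes past the threshold in any comparison and for the gene with the highest mean CPM of each role group; genes named beyond this rule were chosen after their values were seen. Positions, lengths and transcripts come from GENCODE M21 (GRCm38) and promoter windows from RefSeq (GRCm38.p6). Doublets were not called.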

Additional observations from a re-analysis of the deposited data

Results flagged for a closer look

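In 5 cases both hyperoxia mice differed from both P7 mice in one direction in Car4- capillaries and in the opposite direction in another class. The values are differences of the change in mean log2(CPM + 1), Car4- minus the other class, and none of these differences was tested. For Car4- and venous EC these were 3 of the 40 listed genes tested in both, where 3.81% of all genes were opposite. For Car4- and proliferative EC they were 2 of 43, beside 3.93% of all genes. Between Car4- and Car4+ capillaries 0 of 42 were opposite, beside 3.80% of all genes.

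Against venous EC the difference was 1.23 for Igtp, -0.74 for Ifi35 and 2.09 for Isg15. Igtp had 24.6 and 36.9 CPM after hyperoxia and 19.6 and 22.6 CPM in normal air in Car4- capillaries, and 26.8 and 45.3 CPM against 66.8 and 51.9 CPM in venous EC. Ifi35 had 136 and 137 CPM against 141 and 156 CPM in Car4- capillaries, and 145 and 187 CPM against 76.6 and 139 CPM in venous EC. Isg15 was low throughout, between 0.244 and 4.28 CPM in these sums.

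Against proliferative EC the difference was 2.52 for Igtp, which had 9.30 and 18.8 CPM after hyperoxia and 67.7 and 49.9 CPM in normal air there. It was 5.17 for Ifit3, which had 3.94 and 0 CPM after hyperoxia and 4.53 and 12.7 CPM in normal air there.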

How the results depend on the processing

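Genes called in Car4- capillaries at P21 against P7 numbered 6 with edgeR, 26 with DESeq2, 3 in CD31-gate cells, 3 with sex as a block (AU020206, Ifi213 and Igtp) and 0 (without the female P7 mouse) to 7 (without the female P21 mouse) when a mouse was left out. Against P1 they numbered 5 with edgeR, 21 with DESeq2, 3 in CD31-gate cells, 10 with limma and 0 (without the male P1 mouse) to 9 (without the female P1 mouse). Where edgeR called 0, DESeq2 called 6 in Car4+ P21 against P7, 5 in Car4+ P21 against P1, 1, 2 and 3 under hyperoxia in Car4-, Car4+ and proliferative EC, and 2 for the difference between Car4+ and Car4- at P21. No filter gave 2, 1 and 1 in Car4+ against P7, Car4+ against P1 and proliferative EC, thinned cells gave 1 and 1 in the Car4+ comparisons, and leaving out a mouse left 0 in each. The causes were not tested. The labels give no replicate numbers, so the block used sex.

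The mean over mice of the median number of the genes per cell was 7.5, 9.5 and 5.5 thinned and 8.5, 11.5 and 6.5 with all reads, in Car4- at P7, Car4- at P21 and Car4+ at P7. Without the female E18.5 mouse the genes lower than in Car4- in each mouse numbered 3 in venous, 5 in proliferative and 3 in arterial EC, against 0, 1 and 0. Among called genes, 85 values under alternatives passed, 36 did not and 0 changed direction; AU020206 had adjusted p from 8.3e-16 to 0.144 against P7. With 2 mice a group, a change that misses the threshold may still be present.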
